A study of Homo sapiens with 6 samples.

Results

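The genes of the cytosolic ribosomal proteins were followed through 6 RNA libraries of HEC-1B, a cell line of human endometrioid carcinoma. Members were the symbols of the RPL, RPS, RPLP and RPSA series, with their paralogs, and 82 of the 23284 listed symbols met that rule. The values were FPKM, fragments of a transcript per kilobase, scaled by library, in 1 table per library. The high-potential accelerated group (2 libraries) came from HEC-1B cells labelled with a high potential for aldehyde dehydrogenase (ALDH) and as ALDH-high accelerated. The plain accelerated group (2 libraries) carried the same ALDH-high accelerated label without the mention of high potential; "plain" is used here only for that absence. The high-to-low group (2 libraries) was labelled as ALDH-high to low. All of them were 1 cell line in culture, the labels name no agent, genotype or time, and each group rests on 2 libraries. The study asked how cells that do and do not speed up the passage from a low to a high level of ALDH1A1 differ in expression. ALDH1A1 itself had 353 and 304 FPKM in high-potential accelerated replicates 1 and 2, and 28.4 and 9.44 in high-to-low. In plain accelerated replicates 1 and 2 it had 26.7 and 317 FPKM, so the 2 libraries of that group were unlike in this gene.

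A ribosome joins a small and a large subunit, and each cytosolic subunit is built from ribosomal RNA and 1 copy of most of its proteins. RPS genes encode proteins of the small subunit and RPL genes those of the large one, and RPLP0, RPLP1 and RPLP2 make the stalk that recruits elongation factors. Their mRNAs are among the most abundant in growing cells and begin with a run of pyrimidines, the terminal oligopyrimidine (TOP) tract, through which mTOR signalling controls their translation. Because each ribosome needs its proteins in fixed proportion, the family is commonly read as a group. Loss of 1 copy of several members causes Diamond-Blackfan anaemia, and free RPL5 and RPL11 bind MDM2 and thereby stabilise p53.

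The starts of 6 members are shown: RPL15, RPL14, RPL29 and RPL32 as members of the short arm of chromosome 3 and RPL39 as 1 of the pair with RPL39L, which are described below as lower in high-potential accelerated cells, and RPL19 as an abundant member of small spread. Each window holds 60 bases before and 20 bases from the listed start in RefSeq on GRCh38.p14, read on the gene's strand, and the capitals mark the pyrimidine run. They were taken from RPL15 at chr3:23917072-23917151 (plus strand), RPL14 at chr3:40457279-40457358 (plus strand), RPL29 at chr3:51995876-51995955 (minus strand), RPL32 at chr3:12841546-12841625 (minus strand), RPL39 at chrX:119791611-119791690 (minus strand) and RPL19 at chr17:39200223-39200302 (plus strand).
RPL15: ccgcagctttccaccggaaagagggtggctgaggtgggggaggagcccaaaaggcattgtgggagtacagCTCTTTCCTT
RPL14: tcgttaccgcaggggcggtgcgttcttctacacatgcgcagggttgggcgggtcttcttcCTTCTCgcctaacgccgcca
RPL29: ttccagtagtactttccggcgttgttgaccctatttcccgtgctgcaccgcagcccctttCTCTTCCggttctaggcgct
RPL32: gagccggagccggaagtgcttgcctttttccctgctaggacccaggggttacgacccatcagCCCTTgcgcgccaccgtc
RPL39: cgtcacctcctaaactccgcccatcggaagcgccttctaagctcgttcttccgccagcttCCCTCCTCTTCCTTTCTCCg
RPL19: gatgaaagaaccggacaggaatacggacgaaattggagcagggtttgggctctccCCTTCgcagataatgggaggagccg
The run was searched as a C followed by at least 4 further C or T letters on the gene's strand, beginning from 5 bases before to 15 bases after a listed start. Of the 82 members, 66 matched the promoter table with 81 windows, and 66 of those windows (81.5%) held such a run, against 32.5% of 35116 windows of all genes. The RPL15 run begins 10 bases into the transcript and goes on past the printed window. CCGGAAG, the core of the motif bound by ETS factors such as GABP, was sought on both strands over the full windows. It stood in 27 of the 81 member windows (33.3%), against 10.3% of all windows, and its reverse complement can overlap a pyrimidine run, as in RPL29. All 6 genes shown hold a run by this search, the 5 that departed from the family as well as RPL19, and a match is a description of letters only. The RPL19 run fills the 5 bases before the listed start and so lies outside the transcript as listed there.

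Ribosomal protein genes held close to 3% of all FPKM in every library. The summed FPKM of the 82 members was 16810 and 17581 in high-potential accelerated cells, 15747 and 15739 in plain accelerated cells, and 16599 and 19851 in high-to-low cells. As a share of all FPKM this was 3.25% and 2.94% in high-potential accelerated cells, 2.95% and 2.83% in plain accelerated cells, and 2.99% and 3.47% in high-to-low cells. High-to-low replicate 2 stood above the other 5 libraries, and both plain accelerated libraries stood at the low end of the sums. Small RNA genes took 9.99% and 18.7% of FPKM in high-potential accelerated cells, 15.3% and 13.4% in plain accelerated cells, and 14.3% and 9.10% in high-to-low cells. With small RNA genes left out of the total, the family share was 3.61% in both high-potential accelerated libraries, 3.49% and 3.27% in plain accelerated cells, and 3.49% and 3.82% in high-to-low cells.

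Counted gene by gene, the family was highest in 1 high-to-low library. After a filter of at least 1 FPKM in at least 2 libraries, 78 members remained for testing, and the median of their log2(FPKM + 1) was 7.11 and 7.18 in high-potential accelerated cells. It was 7.18 and 6.99 in plain accelerated cells and 7.17 and 7.45 in high-to-low cells. Of the 78, 38 had their highest value in high-to-low replicate 2, and 65 lay there above their own mean over the 6 libraries. In the other 5 libraries between 27 and 39 members lay above their own mean. Plain accelerated replicates 1 and 2 held the lowest value of 20 members each, and high-potential accelerated replicates 1 and 2 of 18 and 15. High-to-low replicates 1 and 2 held the lowest value of 1 and 4 members.

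Median scaling, in which each library is divided by the typical ratio of its genes to their mean over libraries, left this picture in place. The factors were 1.02 or less. The scaled medians were 7.11 and 7.17 in high-potential accelerated cells, 7.18 and 6.97 in plain accelerated cells, and 7.15 and 7.43 in high-to-low cells. The number of members above their own mean was unchanged in each of the 6 libraries, at 65 in high-to-low replicate 2 and between 27 and 39 elsewhere. The deviation of the family median in high-to-low replicate 2 was 0.22 on the log2 scale as deposited and 0.21 after scaling. When each library was instead rescaled without small RNA genes, that deviation fell to 0.11. The summed FPKM of the family in that library then fell from 19851 to 18332. Both values remained the highest of the 6 libraries.

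**Figure D1:**
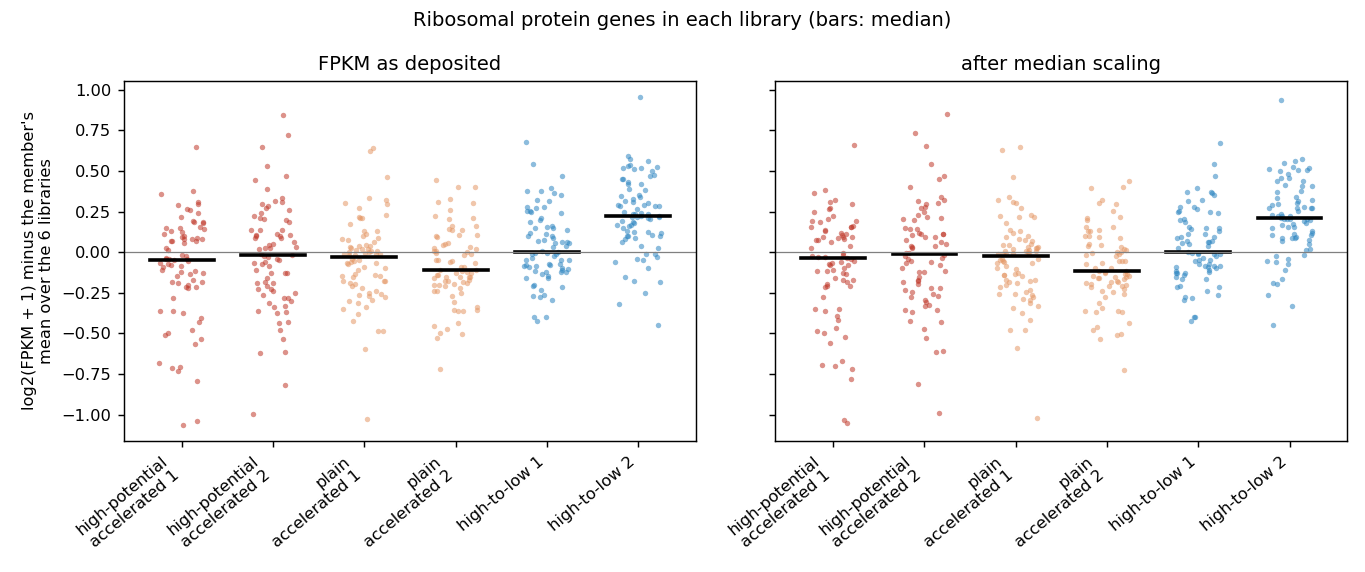
Each point is 1 of the 78 tested ribosomal protein genes in 1 library, as log2(FPKM + 1) minus its mean over the 6 libraries, on the FPKM as deposited (left) and after median scaling (right), and bars mark the medians. High-to-low replicate 2 has the highest median, 0.22 as deposited and 0.21 after scaling, and the other 5 libraries lie near or below 0.

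The replicates of the high-to-low group differed by more than any of the family's median differences between groups, given below. The median member was higher by 0.23 in high-to-low replicate 2 than in replicate 1, and 60 of 78 members shared that direction. In the high-potential accelerated group the median step between replicates was 0.06, with 46 members higher in replicate 2, and in the plain accelerated group it was -0.10, with 32 higher. Relative sequencing depth was not measured but inferred from the most common ratio between libraries among genes of very low FPKM. By that estimate it ran from 0.807 to 1.07, with high-potential accelerated replicate 1 at 1. No label states that replicates were separate cultures; the p-values below therefore reflect the spread of these libraries alone, and that spread may be technical. In bulk RNA, a change in the cells that make up a library and a change in RNA per cell cannot be told apart.

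Members spanned a wide range of levels within each library. RPL38, a large subunit protein, was the most abundant by mean FPKM, at 1413 and 2278 FPKM in high-potential accelerated cells, 1039 and 1335 in plain accelerated cells, and 1103 and 1903 in high-to-low cells. RPS14 averaged 721 FPKM, RPL35A 701, RPL19 614, RPL8 607 and RPS6 542 over the 6 libraries. The median member averaged 137 FPKM, and 12 members averaged under 20. RPL19, a large subunit protein, had a small spread, with a ratio of 1.32 between its highest and its lowest library. It had 635 and 586 FPKM in high-potential accelerated cells, 539.7 and 633 in plain accelerated cells, and 575 and 714 in high-to-low cells. The ratio of the highest to the lowest library had a median of 1.61 over the 78 tested members and ran from 1.22 for RPL27A to 7.96 for RPL36A.

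A few members that every ribosome needs were listed near 0. RPL21, of the large subunit, was listed at 0.126 and 0.0246 FPKM in high-potential accelerated cells, at 0.0238 and 0 in plain accelerated cells, and at 0.0255 and 0 in high-to-low cells. RPS27, of the small subunit, was listed at 0.633 and 0 FPKM in high-potential accelerated cells, at 0 in both plain accelerated libraries, and at 0.589 and 0 in high-to-low cells. A value at or near 0 in such a gene can be a failed estimate, and neither entered the tests. RPS28 averaged 1.2 FPKM and RPL36A 2.13. RPL10L, a paralog of RPL10 known from testis, was listed at 0 in all 6 libraries. RPL3L, the paralog of RPL3 known from heart and skeletal muscle, was listed at 0.171 FPKM in high-potential accelerated replicate 2 and at 0 in the other 5.

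Many members have processed pseudogenes, near-identical copies that can share reads with them, and how such reads were counted is not given in the sources used here. RefSeq names 137 pseudogenes after RPL21, 95 after RPL23A, 80 after RPL7A and 74 after RPSA. The 37 members with at least 20 named pseudogenes had a median level of 80.9 FPKM, and the 45 members with fewer had 167.7 FPKM. Across the 82 members the Spearman correlation of mean FPKM with that number was -0.14, and with the median transcript length -0.21; both are descriptions over genes of the same libraries. RPL31 had 64 such pseudogenes and averaged 485 FPKM, so a long list of copies did not go with a low level in each case.

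**Figure D2:**
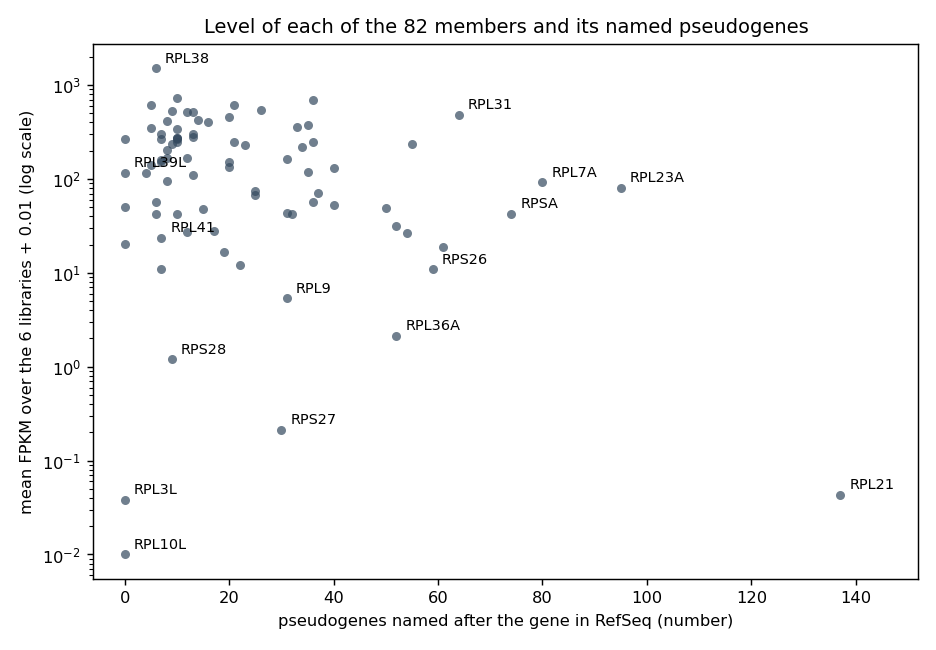
Each point is 1 of the 82 ribosomal protein genes, with the number of pseudogenes that RefSeq names after it on the horizontal axis and its mean FPKM over the 6 libraries plus 0.01 on a log axis. RPL21, with 137 named pseudogenes, is listed near 0, while RPL31, with 64, averages 485 FPKM.

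Between the high-potential accelerated and the plain accelerated groups the family as a whole stood almost level, and single members departed widely in both directions. The median difference of the 78 members was 0.06 on the log2(FPKM + 1) scale, on which the change of low genes is understated, and the median over all 12135 tested genes was 0.00. Of the members, 46 were higher and 32 lower in high-potential accelerated cells, against 50.4% and 49.6% of all tested genes. The limma model, fitted over all genes and all 6 libraries with a Benjamini-Hochberg adjusted p under 0.05 as the call, called 0 members, where it called 0.494% of all genes. At an unadjusted limma p under 0.05 it had 10 members, or 12.8%, against 14.3% of all genes. The libraries of the groups did not overlap in 40 members, 51.3% of those tested, against 43.4% of all genes. With 2 libraries against 2, an exact permutation test cannot give a p below 0.333.

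RPL15, a large subunit protein altered in Diamond-Blackfan anaemia, departed most. It had 135 and 112 FPKM in high-potential accelerated cells, 351 and 248 in plain accelerated cells, and 359.5 and 270.5 in high-to-low cells. Both high-potential libraries lay below the other 4. It was lower by 1.26 against plain accelerated (log2 difference -1.26, SE 0.262, limma adjusted p = 0.116) and by 1.34 against high-to-low (log2 difference -1.34, limma adjusted p = 0.0819). Neither passed the threshold in this model, and over 16 alternative settings the log2 difference from plain accelerated lay between -1.51 and -1.01. Of these settings, a term for the replicate number, whose meaning no label gives, called RPL15 in both comparisons, as described under the processing.

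RPL15 lies on the short arm of chromosome 3, and the other 4 members on that arm were also lower; this grouping was made after the values were seen and was given no test. RPL29, a heparin-binding large subunit protein, had 128 and 145 FPKM in high-potential accelerated cells, 231 and 265 in plain accelerated cells, and 255 and 303 in high-to-low cells. RPL14, of the large subunit, had 31.0 and 40.1 FPKM in high-potential accelerated cells, 55.8 and 67.6 in plain accelerated cells, and 70.8 and 77.1 in high-to-low cells. RPL32, also of the large subunit, had 49.9 and 51.3 FPKM in high-potential accelerated cells, 81.1 and 76.9 in plain accelerated cells, and 83.7 and 87.2 in high-to-low cells. In each of these genes the 2 high-potential libraries lay clearly apart, below the other 4. RPSA, the small subunit protein also known as the laminin receptor precursor, had 31.3 and 34.1 FPKM in high-potential accelerated cells, 38.9 and 55.6 in plain accelerated cells, and 39.1 and 58.2 in high-to-low cells. Its high-potential libraries were again the lowest, with a narrower gap.

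The log2 differences of these 5 members had a median of -0.78 against plain accelerated and -1.02 against high-to-low, and the 5 were lower in both, by limma adjusted p-values of 0.116 to 0.476 and 0.0819 to 0.362. The other tested genes of the arm showed the same direction: 304 of 319 were lower against plain accelerated, with a median of -0.65, and 299 of 319 against high-to-low, with a median of -0.63. Between the plain accelerated and the high-to-low libraries the arm's other genes had a median of 0.00, with 157 lower and 161 higher, and the 5 members a median of -0.11. The members and the other genes of the arm thus lay on the same side, and the origin of that difference was not tested. On the long arm the 4 members were mixed against plain accelerated: RPL24 and RPL22L1 were lower by 0.19 and 0.50 (log2 differences -0.19 and -0.50), and RPL35A and RPL39L higher by 0.48 and 0.64. Over the 16 alternatives RPL24 ranged from -0.40 to 0.03, so that its direction turned, RPL22L1 from -0.76 to -0.23 and RPL35A from 0.32 to 0.64. The other 341 tested genes of the long arm had a median of -0.17.

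**Figure D3:**
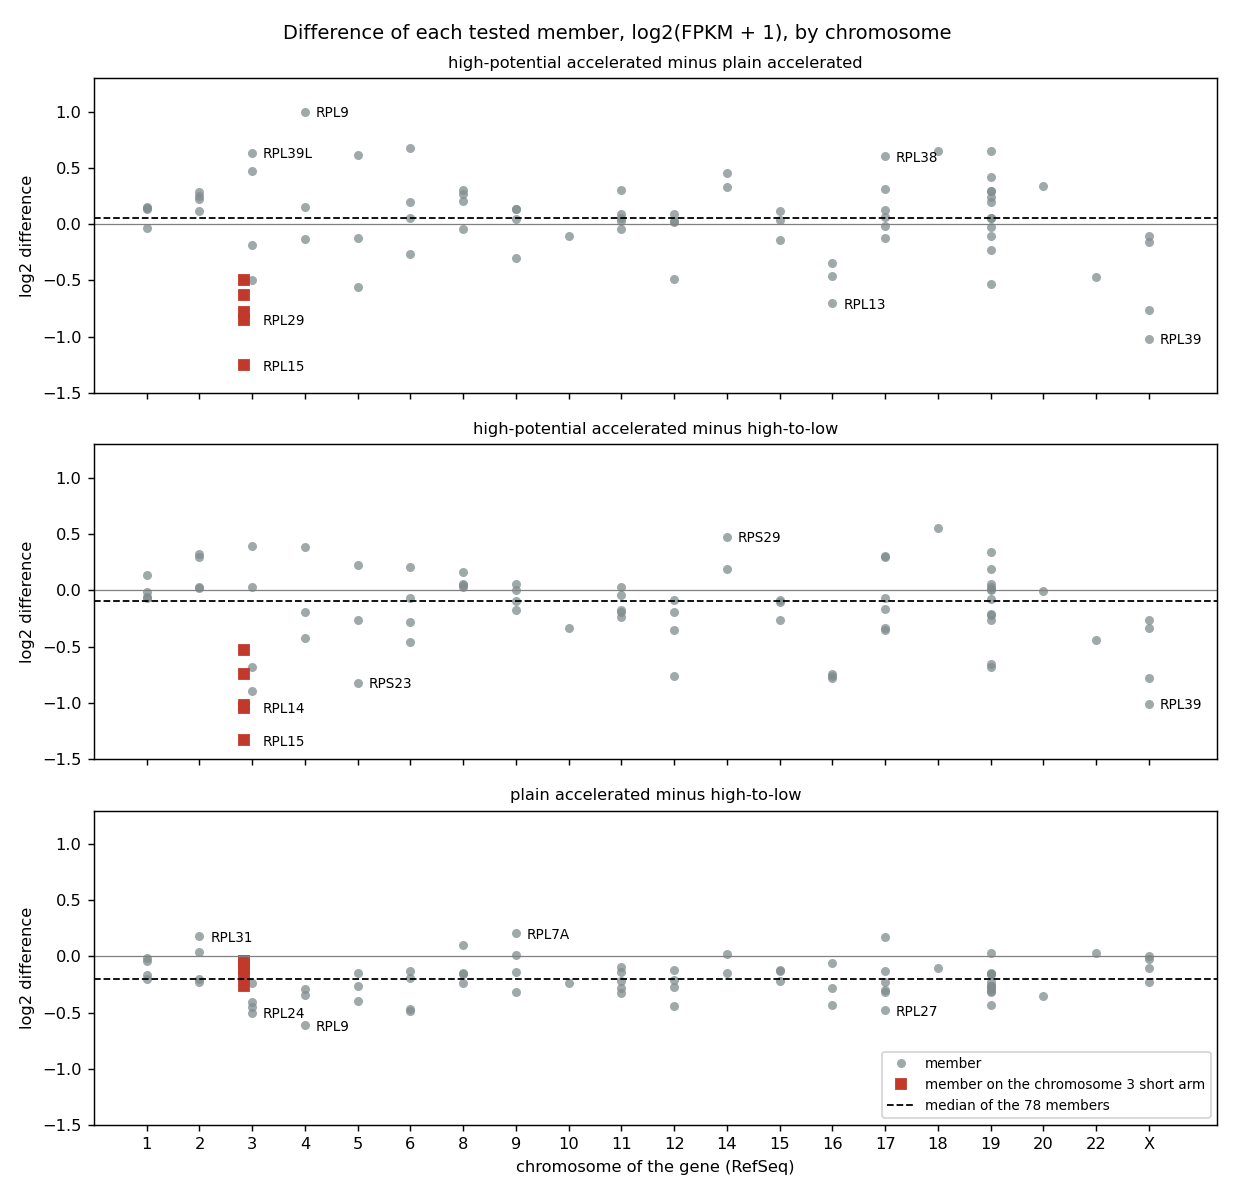
Each point is 1 of the 78 tested ribosomal protein genes, placed by the chromosome that RefSeq gives it, with its log2(FPKM + 1) difference in the 3 comparisons and the family median as a dashed line (0.06, -0.10 and -0.21 from top to bottom). The 5 members on the short arm of chromosome 3 (squares) lie between -1.26 and -0.49 in the top panel and between -1.34 and -0.53 in the middle one, and near the family median in the lower one, between -0.26 and -0.04.

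On a few other chromosomes, also picked out after the values were seen, the members lay on 1 side without passing the test. The 4 members on chromosome X were lower in both comparisons of the high-potential libraries, with medians of -0.46 and -0.56. Among them, RPL36A was of low level with overlapping groups, and RPL10 differed from plain accelerated by only -0.11, with overlapping libraries. The 3 tested members of chromosome 16, RPL13, RPS2 and RPS15A, had medians of -0.46 and -0.76. RPL13, a large subunit protein, had 20.6 and 17.1 FPKM in high-potential accelerated cells, 32.4 and 30.0 in plain accelerated cells, and 34.7 and 30.4 in high-to-low cells, with no overlap between the high-potential libraries and the rest. The 4 members of chromosome 2 were higher in both comparisons, with medians of 0.24 and 0.17. So were the 2 tested members of chromosome 14, with medians of 0.40 and 0.33. Values of the other genes on these chromosomes are not given here, so these small sets have no background beside them. RPS23, a small subunit protein at the decoding centre, had 25.2 and 34.5 FPKM in high-potential accelerated cells, 46.3 and 41.6 in plain accelerated cells, and 47.2 and 59.4 in high-to-low cells. Over the family, both high-potential libraries lay below the other 4 in 16 of 78 members, against 17.5% of all tested genes, and above them in 8, against 15.3%. These shares are near the background.

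**Figure D4:**
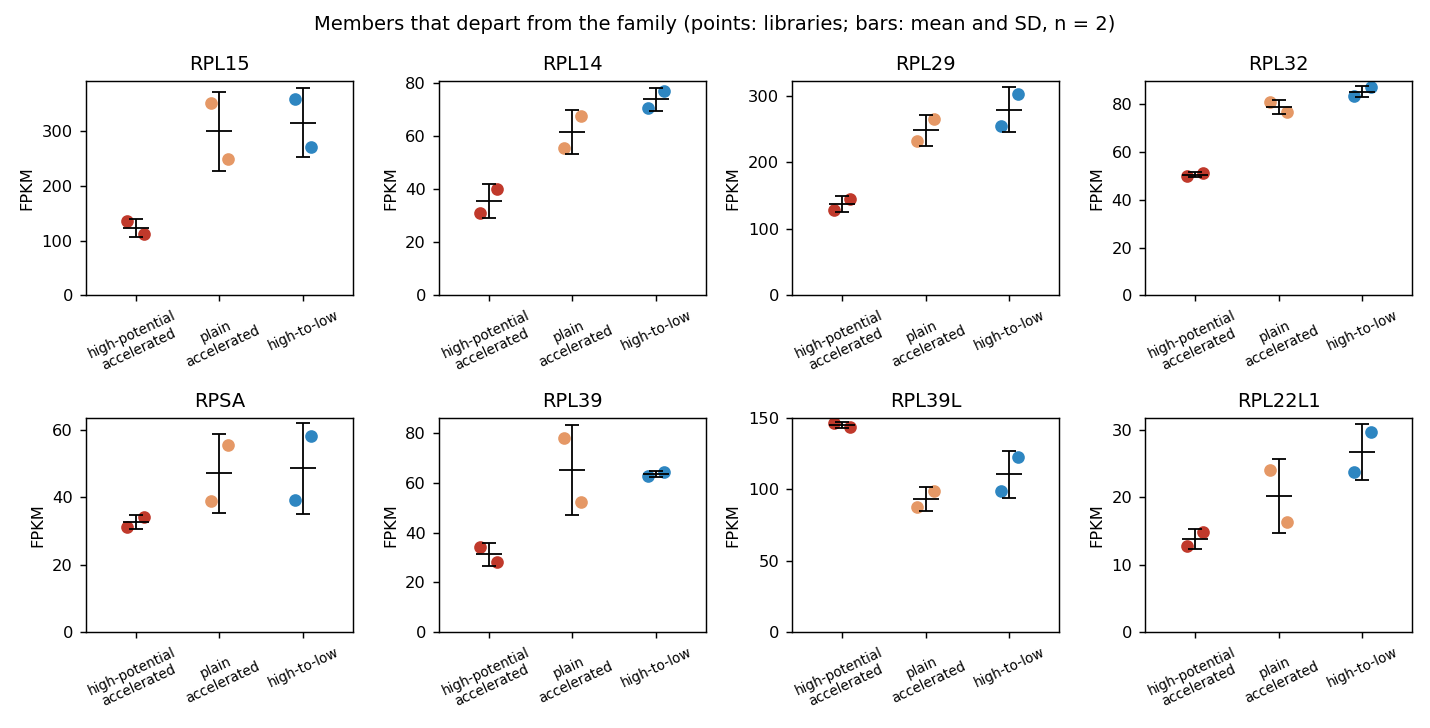
FPKM of 8 ribosomal protein genes in each library (points, with the axis from 0), by group, with the mean and SD of 2 libraries. RPL15, RPL14, RPL29, RPL32, RPSA, RPL39 and RPL22L1 are lowest in both high-potential accelerated libraries and RPL39L is highest there, at 147 and 144 FPKM.

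The paralogs RPL39 and RPL39L departed in opposite directions in high-potential accelerated cells. RPL39 lines the exit tunnel of the large subunit, and RPL39L is its paralog, known from male germ cells in mouse. RPL39 had 34.4 and 28.0 FPKM in high-potential accelerated cells, 78.0 and 52.3 in plain accelerated cells, and 62.7 and 64.5 in high-to-low cells, and the high-potential libraries were the lowest. RPL39L had 147 and 144 FPKM in high-potential accelerated cells, 87.5 and 99.2 in plain accelerated cells, and 99.0 and 122 in high-to-low cells, and the high-potential libraries were the highest. The ratio of RPL39L to RPL39 was thus 4.26 and 5.13 in high-potential accelerated cells, 1.12 and 1.90 in plain accelerated cells, and 1.58 and 1.90 in high-to-low cells. The sum of the pair stayed between 151 and 187 FPKM in the 6 libraries. Against plain accelerated, RPL39 was lower by 1.02 (log2 difference -1.02, SE 0.242, limma adjusted p = 0.146) and RPL39L higher by 0.64 (SE 0.193, limma adjusted p = 0.214), so neither passed. RPL39 has 40 named pseudogenes in RefSeq and RPL39L has 0, and reads of the pair could be split between copies.

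In the pair of RPL22, an RNA-binding protein of the large subunit, and its paralog RPL22L1, the difference lay in the paralog. RPL22L1 had 12.7 and 14.8 FPKM in high-potential accelerated cells, 24.0 and 16.3 in plain accelerated cells, and 23.7 and 29.6 in high-to-low cells. RPL22 had 11.6 and 13.3 FPKM in high-potential accelerated cells, 11.5 and 10.7 in plain accelerated cells, and 15.9 and 9.94 in high-to-low cells. RPL22L1 was lowest in the high-potential libraries, while the groups overlapped or nearly met in RPL22. RPL22L1 was lower by 0.90 against high-to-low (log2 difference -0.90, SE 0.251, limma adjusted p = 0.144). RPL36AL, a near copy of RPL36A at the protein level, had 288 and 316 FPKM in high-potential accelerated cells, 199 and 286 in plain accelerated cells, and 246 and 284 in high-to-low cells, and held between 98.5 and 99.9% of the summed FPKM of its pair. RPS27L, the p53-responsive paralog of RPS27, lay between 43.1 and 58.5 FPKM in the 6 libraries.

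Toward the upper end, RPL9 of the large subunit had the greatest positive difference from plain accelerated at a low level. It had 5.25 and 9.58 FPKM in high-potential accelerated cells, 1.90 and 4.69 in plain accelerated cells, and 4.01 and 6.69 in high-to-low cells. The high-potential and plain accelerated libraries did not overlap, by a small margin, while the spread within each group was wide (log2 difference 1.0, SE 0.437, limma adjusted p = 0.373). RPS10, a small subunit protein altered in Diamond-Blackfan anaemia, had 47.3 and 58.3 FPKM in high-potential accelerated cells, 35.5 and 29.8 in plain accelerated cells, and 39.4 and 52.1 in high-to-low cells. RPL17, RPL28, RPL39L and RPL37, all of the large subunit, were higher by 0.66, 0.65, 0.64 and 0.62 on the log2 scale against plain accelerated, and none of them passed the limma threshold. RPL9 ranged from 0.51 to 1.49 over the 16 alternatives, RPL17 from 0.31 to 0.999 and RPL28 from 0.25 to 1.05.

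RPLP0, the base of the stalk, averaged 166 ± 23.1 FPKM in high-potential accelerated cells, 162 ± 14.4 in plain accelerated cells and 175 ± 5.43 in high-to-low cells (SD, n = 2 each). RPLP1, which forms dimers with RPLP2 on it, averaged 515 ± 56.3 FPKM in high-potential accelerated cells, 503 ± 70.0 in plain accelerated cells and 548 ± 43.2 in high-to-low cells. RPLP2 averaged 379 ± 103 FPKM in high-potential accelerated cells, 301 ± 15.9 in plain accelerated cells and 367 ± 59.0 in high-to-low cells. The differences between groups in RPLP0 and RPLP1 were within the spread of their replicates. RPLP2 was higher by 0.31 on the log2 scale against plain accelerated, beside the family median of 0.06, and ranged from 0.03 to 0.59 over the 16 alternatives, with 1 high-potential library at 306 FPKM within the plain accelerated range of 289 to 312. Of 17 tested members linked to Diamond-Blackfan anaemia, 10 were higher and 7 lower against plain accelerated, with a median of 0.14, and 0 passed. Of 9 tested members of the 5S particle and the group known to bind MDM2, 4 were higher and 5 lower, with a range from -0.12 for RPL23 to 0.25 for RPS7.

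Against the high-to-low libraries, the high-potential accelerated libraries had a family median of -0.10, with 50 of 78 members lower, where 50.8% of all tested genes were lower. After median scaling it was -0.08. The limma model called 0 members, against 0.799% of all genes. At an unadjusted limma p under 0.05 there were 13 members (16.7%), all of them lower, against 18.4% of all genes in either direction and 10.8% lower. The libraries did not overlap in 35 members, 44.9%, against 51.1% of all genes. Without high-to-low replicate 1 the median was -0.25, and without replicate 2 it was -0.065, so its size rests on which of these 2 libraries is used. The comparison shares its high-potential libraries with the one above, and the values of the departing members stand beside each other there.

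After the members of chromosome 3 and RPL39, the lowest differences were -0.82 in RPS23, -0.78 in both RPL36A and RPS15A, and -0.76 in RPL13. RPL36A, of the large subunit, is a gene of low level with replicates far apart, at 0.415 and 2.02 FPKM in high-potential accelerated cells, 3.07 and 2.02 in plain accelerated cells, and 3.30 and 1.93 in high-to-low cells, so the groups overlapped. RPS15A, of the small subunit and picked out after its values were seen, had 88.2 and 105 FPKM in high-potential accelerated cells and 148 and 185 in high-to-low cells, without overlap. The greatest positive differences were in RPL17, at 0.55, and in RPS29, a small subunit zinc-binding protein, at 0.48; over the 16 alternatives they ranged from 0.22 to 0.87 and from 0.14 to 0.82. RPS29 had 540.4 and 339 FPKM in high-potential accelerated cells, 362 and 268 in plain accelerated cells, and 284 and 331 in high-to-low cells; 1 high-potential library stood far above the rest and the other lay just above the higher high-to-low library.

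By group means, most of the family was lower in plain accelerated than in high-to-low cells. The family medians of the single libraries overlapped, at 7.18 and 6.99 in plain accelerated cells and 7.17 and 7.45 in high-to-low cells. The median difference was -0.21, and 68 of 78 members were lower (87.2%), where 52.9% of all tested genes were lower. The shift was seen in both subunits, with 39 of 48 large subunit members lower (median -0.15) and 29 of 30 small subunit members lower (median -0.23). The limma model called 0 members, against 0.0165% of all genes, and 0 members had an unadjusted limma p under 0.05, against 0.972% of all genes. The libraries did not overlap in 28 members, of which 27 were lower, 34.6% of those tested, against 12.7% of all genes. RPL11, of the 5S particle, stood at the family median, with 135 and 123 FPKM in plain accelerated cells and 127 and 173 in high-to-low cells, which overlapped.

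High-to-low replicate 2 carried much of this difference. Without it the median was -0.10 and 56 of 78 members were lower, where 6261 of 12065 tested genes were lower, and without high-to-low replicate 1 the median was -0.29. Scaling also moved it: the median was -0.20 after median scaling, -0.11 after quantile normalization and -0.11 after rescaling without small RNA genes. The median of all tested genes was -0.02 on the deposited values, -0.01 after median scaling, -0.001 after quantile normalization and 0.06 after rescaling without small RNA genes, so under that rescaling all genes shifted with the family. The members departing downward were RPL9, at -0.61, RPL24, at -0.50, RPS18 and RPL27, both at -0.48, and RPS10, at -0.47. RPL27, of the large subunit, had 424 and 421 FPKM in plain accelerated cells and 480.2 and 726 in high-to-low cells, so the groups did not overlap and high-to-low replicate 2 lay far above. RPL7A, RPL31 and RPL23A, all of the large subunit, had the greatest positive differences, at 0.21, 0.18 and 0.17, and ranged from -0.03 to 0.44, from 0.02 to 0.34 and from 0.05 to 0.29 over the 16 alternatives. Among the members departing downward, RPL9 ranged from -1.10 to -0.12, RPS18 from -0.76 to -0.18, RPL27 from -0.78 to -0.18 and RPS10 from -0.66 to -0.27.

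Other abundant gene groups stood with the family in this comparison. Of 76 mitochondrial ribosomal proteins, which serve the separate ribosomes of mitochondria, 71 were lower in plain accelerated cells, with a median of -0.17. Of 28 genes of oxidative phosphorylation 26 were lower, with a median of -0.22, and of 14 proteasome genes 14 were lower, with a median of -0.19. Of 1006 other genes with a mean of at least 100 FPKM, 802 were lower, with a median of -0.14. Without high-to-low replicate 2, these medians were 0.06 for mitochondrial ribosomal proteins, -0.09 for oxidative phosphorylation, 0.14 for the proteasome and -0.03 for the abundant genes, beside -0.10 for the 78 members. In that replicate the deviation from the gene's own mean had a median of 0.34 in mitochondrial ribosomal proteins, 0.39 in the proteasome and 0.20 in the abundant genes, beside 0.22 in the family. The part of that library in the family's difference from plain accelerated is given by the values with and without it, and its origin was not tested.

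The other genes of the translation pathway gave medians nearer to 0 in this comparison. Of 24 other TOP mRNAs and elongation factors, 16 were lower in plain accelerated than in high-to-low libraries, with a median of -0.05. Of 21 initiation factors 12 were lower, with a median of -0.03, and of 49 ribosome biogenesis genes 27 were lower, with a median of -0.02. Without high-to-low replicate 2, 15 of the 24 TOP mRNAs and elongation factors, 16 of the 21 initiation factors and 40 of the 49 biogenesis genes were higher in plain accelerated than in high-to-low cells, with medians of 0.04, 0.17 and 0.17, so their direction turned with that library; a difference between these groups and the family was not tested. In the high-potential accelerated libraries against plain accelerated, 17 of the 24 TOP mRNAs and elongation factors were lower (median -0.10), 15 of 21 initiation factors higher (median 0.16) and 28 of 49 biogenesis genes higher (median 0.06). None of these genes passed the limma threshold in these comparisons. Against high-to-low, 1 of 76 mitochondrial ribosomal proteins, MRPL40, passed the limma threshold as lower, at -1.53, and 0 of the TOP, initiation and biogenesis genes passed.

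**Figure D5:**
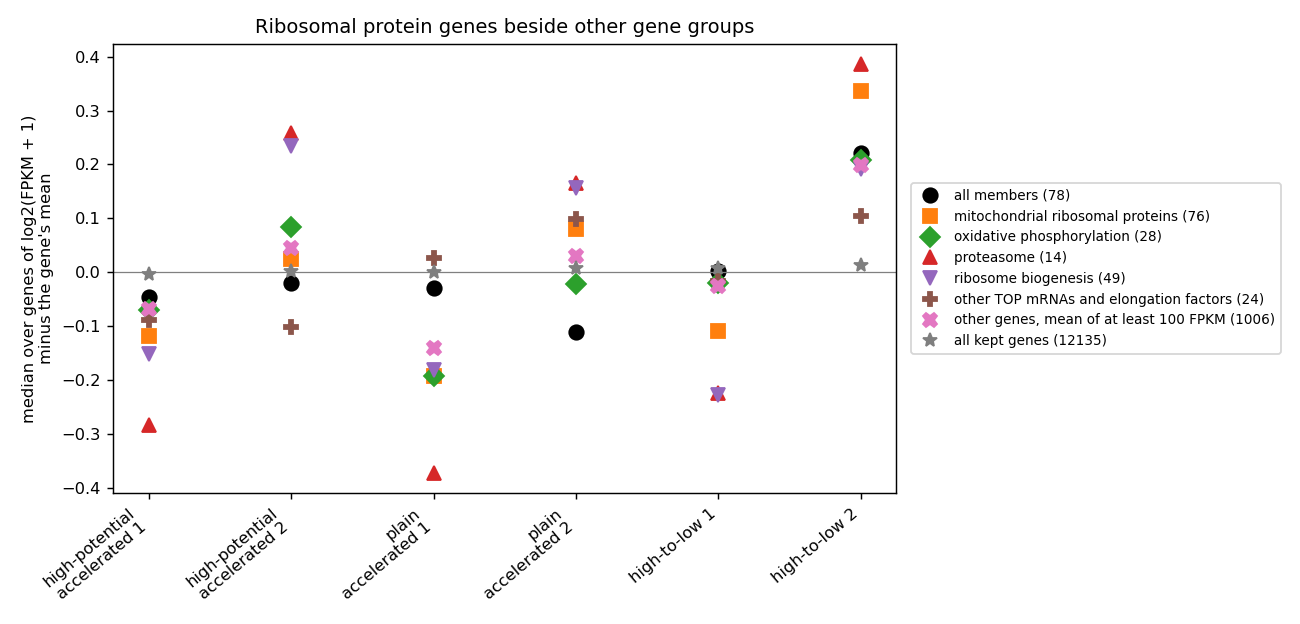
For each library, the median over the genes of a group of log2(FPKM + 1) minus the gene's own mean over the 6 libraries, with the number of tested genes in brackets. In high-to-low replicate 2 the ribosomal protein genes (0.22), mitochondrial ribosomal proteins (0.34), proteasome genes (0.39) and other abundant genes (0.20) all stand above 0, while the median of all 12135 tested genes is 0.01.

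The departures of members were also tested against the family itself, by centring each library on the median of the 78 members before the same limma model. Between high-potential accelerated and high-to-low, this centring moved each member by more than the family median difference of -0.10. RPL15 went from -1.34 to -1.17 there, so downward departures are understated in that fit. The limma model called 0 members between the accelerated groups (11, or 14.1%, at an unadjusted limma p under 0.05, where 11.4% of all genes were), against 0.494% of all genes. It called 0 members between high-potential accelerated and high-to-low (10, or 12.8%, at that unadjusted p, where 14.6% of all genes were), against 0.667% of all genes. Between plain accelerated and high-to-low it called 0 members (0 at that unadjusted p, where 1.29% of all genes were), against 0.0247%. The 6 leukocyte, 4 endothelial and 5 fibroblast markers were each at or under 0.92 FPKM in every library, and 1, 1 and 2 of them were listed at 0 throughout. The endothelial markers summed to 0.112 to 0.991 FPKM in high-potential accelerated cells, 0.0510 to 0.147 in plain accelerated cells and 0.0113 to 0.0196 in high-to-low cells. The summed level of 5 epithelial markers was 408 to 449 FPKM in high-potential accelerated cells, 438 to 590 in plain accelerated cells and 474 to 545 in high-to-low cells, and CDH1 among them was at or under 0.0868 FPKM. KRT8, an epithelial keratin, had 49.4 and 47.1 FPKM in high-potential accelerated cells, 96.9 and 104 in plain accelerated cells, and 90.6 and 108 in high-to-low cells (limma adjusted p = 0.0863 and 0.073 for the 2 comparisons of the high-potential group), and its part in the members' differences was not tested. The other epithelial markers did not share 1 direction: the log2 differences from plain accelerated and from high-to-low were -0.11 and -0.12 in KRT18, 0.35 and 0.40 in KRT19, and -0.69 and -1.28 in EPCAM, and none of them passed the limma threshold.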

How the data were processed

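The authors deposited 1 FPKM table per library, with the same gene symbols in each. Total RNA (miRNeasy) was turned into SMART-Seq v4 cDNA and Nextera libraries, per the labels' protocols, with no record of strand. Per the submitters' processing notes, TopHat2 2.0.13 and Cuffnorm 2.2.1 were used with hg19; the sources used here do not give the annotation or the library scaling. Absolute depth is unknown, and overlapping genes cannot be separated. Chromosomes, arms, pseudogene names and start windows came from RefSeq on GRCh38.p14.

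The filter kept 12135 genes that reached 1 FPKM in 2 or more libraries. On log2(FPKM + 1), 1 limma 3.58.1 model (R 4.3.3) used all 6 libraries, a variance trend and 3 residual degrees of freedom, two-sided, with Benjamini-Hochberg adjustment over all kept genes. Members named were those with extreme departures, spread or level, paralogs, stalk genes and those nearest the median. The members, lists and tests were chosen with earlier results of these data known. Alternatives numbered 16. The steps were checked on simulated data; there, centring on the median level of the members left part of a family shift in place, and centring on their median deviation did not, so both were run.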

Additional observations from a re-analysis of the deposited data

How the results depend on the processing

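The family median kept its sign in the 3 comparisons under each of the 16 alternatives. On leaving out 1 library in turn it lay between 0.03 and 0.07 for high-potential against plain accelerated, between -0.25 and -0.065 for high-potential accelerated against high-to-low, and between -0.29 and -0.10 for plain accelerated against high-to-low. The value of -0.25 came without high-to-low replicate 1. Leaving out 1 library called 0 members in each comparison. Quantile normalization gave 0.03, -0.05 and -0.11, and rescaling without small RNA genes gave 0.03, -0.03 and -0.11, in the same order, with medians over all genes of -0.02, 0.05 and 0.06 under that rescaling, against 0.00, -0.01 and -0.02 on the deposited values. The replicate block, a term for the number 1 or 2 in the titles, raised the members called to 4 between the accelerated groups and 8 between high-potential accelerated and high-to-low, and to 3 and 1 in the fit centred on the family. Of all genes the block called 4.50% and 7.78%, against 5.13% and 10.3% of the members, and 3.74% and 4.55% in the centred fit, against 3.85% and 1.28% of the members. RPL15, RPL29, RPL14 and RPL39 were called in both comparisons (limma adjusted p = 0.016, 0.0282, 0.0432 and 0.0434 between the accelerated groups), and RPL13, RPL13A, RPL32 and RPS2 in the second. No label says that the number marks a shared culture or day, and there are 2 numbers; deviations of same-numbered libraries correlated at 0.158 to 0.281 over all tested genes and at 0.417 to 0.493 over the members. Between plain accelerated and high-to-low the block called 0 members. A further number in the sample descriptions set replicate 2 of both accelerated groups apart from all other libraries. In the accelerated groups it thus ran with the replicate number, and both high-to-low libraries carried the same value. What this number marks was not tested. A term for this number, among the 16 alternatives, called 0 members in each comparison, and 105, 54 and 7 of all genes. The family medians were then 0.06, -0.12 and -0.19, in the order used above. Centring on the members' median deviation, added after the data were seen, called 0 members departing in each comparison, against 0.470%, 0.659% and 0.0165% of all genes. At an unadjusted limma p under 0.05 it had 11, 13 and 0 members, or 14.1%, 16.7% and none, against 1574, 2078 and 185 of the 12135 genes. Of 2106 values of single named genes under an alternative, 108 had the other sign and none of those was called. With 3 residual degrees of freedom and unknown absolute depth, small differences of single members were not detectable.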

Other observations

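FAU and GNB2L1, ribosomal protein genes with symbols outside the family's naming rule, lay within the range of levels of the members. FAU, which encodes a fusion of a ubiquitin-like protein with the small subunit protein eS30, had 189.7 and 240.5 FPKM in high-potential accelerated cells, 191 and 229 in plain accelerated cells, and 192 and 279.7 in high-to-low cells. GNB2L1, the older symbol of the ribosomal scaffold RACK1, had 586 and 558 FPKM in high-potential accelerated cells, 581 and 630.4 in plain accelerated cells, and 608 and 729 in high-to-low cells. In both genes high-to-low replicate 2 held the highest value.

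The number 1 or 2 of a replicate went with the level of some members in all 3 groups, and with that of many genes outside the family. Of the 78 tested members, 23 were higher in replicate 2 of every group, where 24.7% of all tested genes were, and 12 were lower in replicate 2 of every group, where 24.5% were. RPL9 had a smallest step of 0.62 on the log2 scale over the 3 groups, RPL17 of 0.50, and RPS26 and RPL35 of 0.46. RPL3, which lies near the peptidyl transferase centre, was lower in each replicate 2, by 0.31 or more.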
